A study of Mus musculus with 3 samples.

Results

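Ionotropic neurotransmitter receptors are ion channels that a transmitter opens directly, and this account follows the genes of their subunits in whole mouse embryos that lack 2 or 3 of the small Maf proteins. Members were taken by gene symbol: every Gabr, Gria, Grik and Chrn gene, Grin1 to Grin3, the Glra genes and Glrb. The gene table held 58 such symbols, and 51 of them had a probe named through its RefSeq accession, out of 16358 genes with a named probe. Of the 7 others, 5 encode subunits (Chrna9, Chrna10, Gabrr3, Grik3 and Grin3a) and 2 are antisense RNAs that the naming rule also takes (Chrna1os and Grin1os); their levels were not analysed here.

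The 3 groups were triple null embryos at E10.5 (MafF-/-:MafG-/-:MafK-/-) and embryos with both copies of MafG, here MafG-intact (MafF-/-:MafG+/+:MafK-/-), of which 1 group was E10.5 and the other E9.5. All 3 groups lack MafF and MafK, so none is wild type. Each group was 1 Agilent array hybridised with Cy3-labelled RNA of 3 pooled whole embryos of mixed background. No difference below therefore has a replicate error, none was tested, and "higher" and "lower" describe these arrays.

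Small Maf proteins are bZIP factors that pair with CNC and BACH factors to bind DNA. The receptor subunits fall into 2 protein superfamilies. GABA-A, glycine and nicotinic acetylcholine receptors are pentamers whose subunits share a disulfide-bonded loop, while AMPA, NMDA and kainate receptors are glutamate-gated tetramers. At these stages the first neurons of the spinal cord, hindbrain and cranial ganglia are being born and the first skeletal muscle forms in the myotomes, before most synapses exist; GABA and glycine commonly excite such young neurons, because their chloride content is high.

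A level here is the log2 processed intensity minus the 75th percentile of its array, and levels are compared only for the same gene between arrays. Values for 3 arrays are given in the order triple null, E10.5 MafG-intact, E9.5 MafG-intact. A gene is "detected" on an array where the scanner software called it well above background. Mafg had levels of 0.48 and 1.03 at E10.5 and E9.5 in MafG-intact pools and was not detected in the triple null pool (-7.74), which was at least 173-fold and 253-fold lower. The Maff and Mafk probes were detected on all arrays, and which exons they hit is not given in the sources used here, so they do not check the other null alleles. The pools differed in sex: of the 3 arrays, Xist was detected only in MafG-intact embryos of E10.5, and the Y-linked genes Uty, Kdm5d, Eif2s3y and Ddx3y in both other pools. The first and second comparisons below thus also set pools of different sex against each other, and the part of sex in them was not tested. Markers of embryonic tissues were present, with 13 of 13 neuron markers, 8 of 8 cardiac markers and 7 of 7 red cell markers detected on all 3 arrays.

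Receptor subunit genes were dim. Of the 51, 38 (74.5%) were detected on at least 1 array, beside 80.6% of all genes with a probe, and the mean level of 37 of these 38 lay below the median level of all detected genes (-0.75). The exception was Grik5, a high-affinity kainate subunit. The E10.5 MafG-intact array had 37 subunits detected, the E9.5 array 34 and the triple null array 32. On the E10.5 MafG-intact array alone stood 3 subunits, among them Gabra2 and Gabrb1, and on the E9.5 array alone Gabrr2; none stood on the triple null array alone. The 13 never detected were Chrna2, Chrna6, Chrnb3, Gabra6, Gabrd, Gabre, Gabrg3, Gabrq, Glra2, Glra3, Glra4, Grin2a and Grin2b. Depth of signal limits what can be seen at such levels: probes printed 10 times on the triple null array varied between spots with a median SD of 0.33 (log2) below a level of -6, of 0.15 from -6 to -4 and of 0.055 above -2, an error of the array alone that leaves out the embryos' own variation.

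**Figure D1:**
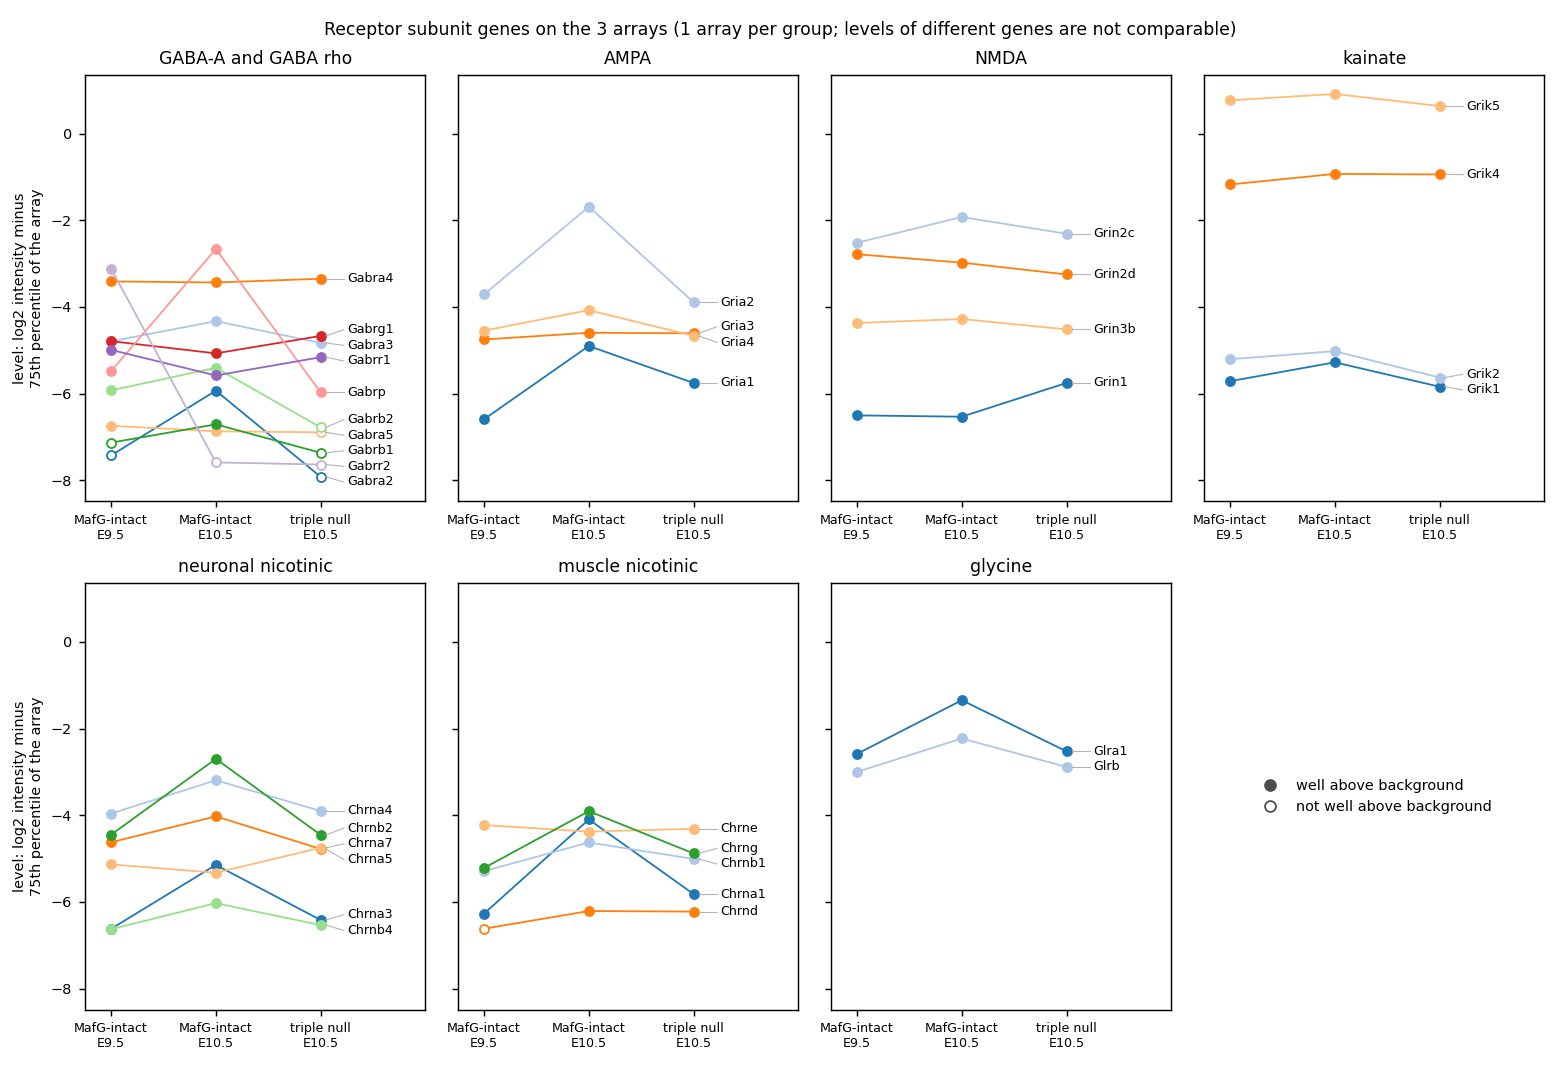
Level of each of 35 of the 38 subunit genes detected on at least 1 array (y axis, log2 intensity minus the 75th percentile of the array) on the 3 arrays (x axis), by receptor family; open points were not well above background and lines join the points of a gene. Gabrp and Gria2 peak on the E10.5 MafG-intact array at -2.66 and -1.69, and Gabrr2 is bright on the E9.5 array alone, at -3.11.

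The first comparison set the triple null pool against the MafG-intact pool at E10.5, which differ in MafG and in sex. Whether the embryos of both pools had reached the same stage was not tested. Of 32 subunits detected on both arrays, 7 were lower by 2-fold or more in the triple null pool and none higher by 2-fold or more, where 4.47% of all 12529 genes measured in this pair were lower by 2-fold or more and 0.982% higher by 2-fold or more (5.45% in either direction). The share among members was 21.9%. Among genes below the median level, where 37 of the 38 lie, 8.10% were 2-fold lower and 1.73% 2-fold higher. That set reaches up to a level of -0.75, while the median of the members' mean levels was -4.85, so it is not matched to the members in level. Among the 7 lower members were Gabrp, Gria2, Chrnb2, Chrna1, Chrna3 and Glra1. The median difference of members was -0.50 (log2) beside 0.06 for all genes, and 26 of 32 lay below 0 beside 41.6% of all genes, and 6 above it beside 58.4%. Among 5 members detected on the E10.5 MafG-intact array alone of this pair, 3 were bounded at 2-fold or more lower, Gabra2 and Gabrb2 among them, beside 24.3% of the 556 genes detected on 1 array of the pair, with 7.19% bounded upward. Neuron markers also differed between these arrays (median -1.86); their part in the receptor values was not tested, and in RNA of whole embryos fewer cells of a type and less RNA per cell cannot be told apart.

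The second comparison set MafG-intact embryos of E10.5 against those of E9.5, a day of development within a genotype. Here 9 of 33 members (27.3%) were higher by 2-fold or more at E10.5 and none lower by 2-fold or more, beside 4.12% higher and 1.07% lower (5.19% either way) among 12514 genes. Below the median level, again a set not matched to the members in level, 7.40% of genes were 2-fold higher and 2.01% lower. Among the 9 were Gabrp, Chrna1, Gria2, Chrnb2, Gria1, Chrna3, Chrng and Glra1, and the median difference of members was 0.47 beside -0.05 for all genes. Members lay above 0 in 25 cases and below it in 8, where 42.8% and 57.2% of all genes did. Bounds beyond 2-fold were found for 1 member upward and for Gabrr2 downward, in a pair where 22.0% of 582 genes detected on 1 array had such a bound upward and 9.97% downward.

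The third comparison took triple null embryos of E10.5 against MafG-intact ones a day younger. None of 31 members was 2-fold or more apart, where 0.527% of 12521 genes were lower by 2-fold or more and 0.256% higher by 2-fold or more (0.783% either way). The median was 0.06 beside 0.0050 for all genes. Members ranged from -0.49 for Gabrp to 0.84 for Gria1, whose value averages in a probe detected on neither array (the detected probe gave 0.57), with 17 above 0 and 14 below it, where 51.5% and 48.5% of all genes lay. Only Gabrr2 was bounded beyond 2-fold, downward, beside 11.3% of 372 genes bounded downward and 6.72% bounded upward. These 3 comparisons share their arrays pairwise, so the first and the second rest on the same E10.5 MafG-intact array and are given side by side, not as 2 independent observations. Processed another way the counts change: with normexp background correction (offset 50) 2 members were lower by 2-fold or more in the first comparison and 3 higher in the second, beside 1.70% and 1.60% of all genes.

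**Figure D2:**
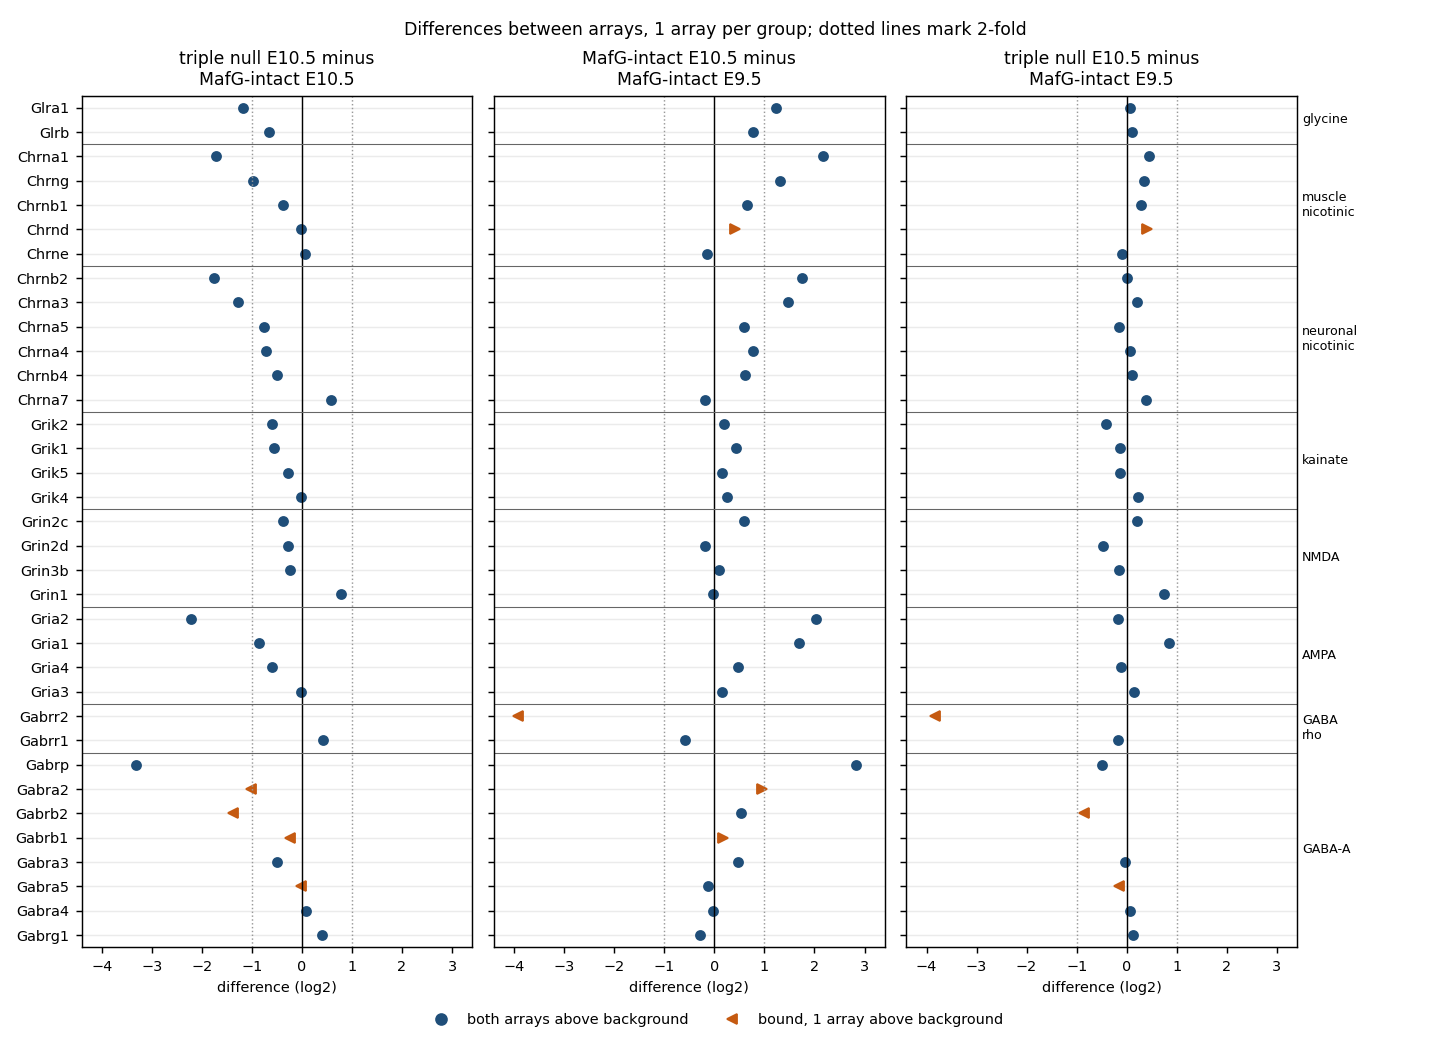
Log2 difference of each of 35 detected subunit genes (rows, by family) in the 3 comparisons; circles are genes detected on both arrays, triangles bounds for genes detected on 1 array, pointing away from 0, and dotted lines mark 2-fold. In the left panel 6 circles lie at or beyond 2-fold lower, in the middle panel 8 lie beyond 2-fold higher, and in the right panel none does.

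The AMPA receptor carries fast excitatory transmission, and all 4 of its subunit genes were detected on every array. Gria2, whose edited subunit makes the channel nearly impermeable to calcium, lay at -3.90, -1.69 and -3.71. It was 4.62-fold lower in the triple null than in the E10.5 MafG-intact pool and 4.07-fold higher at E10.5 than at E9.5 in MafG-intact embryos, and the triple null and E9.5 arrays differed by only -0.18. Its other probe was detected on no array. Gria1 had levels of -5.76, -4.90 and -6.59 over 2 probes, or -0.85 in the first comparison and 0.84 in the third. Of these 2 probes only the brighter was detected on all 3 arrays (-4.56, -3.56 and -5.13), and it gave -0.997 and 0.57. Gria3 and Gria4 stayed within 2-fold, at -0.01 and -0.59 in the first comparison and 0.15 and 0.47 in the second, and the 2 probes of Gria3 lay on opposite sides of 0 in the first.

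NMDA receptors commonly need glycine and glutamate together, and they hold an obligatory GluN1 subunit encoded by Grin1. Grin1 lay at -5.75, -6.53 and -6.50, so its single probe was 1.72-fold higher in triple null embryos than in the E10.5 MafG-intact pool, the highest of the 32 members in that comparison, and 1.68-fold higher than at E9.5. The scanner software's error estimate for the Grin1 probe was 0.21, 0.29 and 0.31 (log2) on the 3 arrays. With normexp Grin1 was at 0.49 in place of 0.78 (log2) in the first comparison and at 0.13 in place of 0.75 in the third. Grin2c, Grin2d and Grin3b were at -0.39, -0.27 and -0.24 in the first comparison. No NMDA gene was 2-fold or more apart in any comparison, and Grin2a and Grin2b, the main partners of GluN1 in the forebrain, were not detected on any array.

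Kainate receptors work on both sides of the synapse and modulate release. Grik5 lay at 0.63, 0.91 and 0.77 and Grik4 at -0.94, -0.93 and -1.17; both encode high-affinity subunits that need a partner from Grik1 to Grik3 to form a channel. Of those partners, the ones with a probe lay at -0.56 (Grik1) and -0.61 (Grik2) in the first comparison. All 4 kainate genes stayed within 2-fold in all 3 comparisons.

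GABA-A receptors of the mature brain are mostly built of alpha, beta and gamma subunits. Gabra2, an alpha subunit gene prominent in the embryonic brain, had levels of -7.92, -5.93 and -7.43, was detected on the E10.5 MafG-intact array alone and was at least 2.03-fold lower in triple null embryos. The beta subunit gene Gabrb2 lay at -6.78, -5.40 and -5.93 and was not detected in the triple null pool, where it was at least 2.60-fold lower than at E10.5 MafG-intact and at least 1.81-fold lower than at E9.5.

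Other GABA-A genes had smaller differences or bounds. Gabra4 lay at -3.35, -3.44 and -3.41. Gabrg1, whose probe is printed 10 times, lay at -4.67, -5.07 and -4.79 with SDs between spots of 0.17, 0.18 and 0.11, so that it was 1.32-fold higher in the triple null pool. Gabra3 was at -0.50 in the first comparison, where Gabrb1 and Gabra5 had bounds of only at least 1.18-fold and 1.02-fold lower. Of the 6 GABA-A genes detected on both E10.5 arrays, 2 were lower by 2-fold or more, with a median of -0.35, which turned to 0.054 with normexp.

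Gabrp encodes the pi subunit, which in the adult is found mainly outside the brain, in tissues such as uterus and lung. It had the largest difference of any member detected on both arrays, with levels of -5.97, -2.66 and -5.48. The triple null pool was 9.92-fold lower than E10.5 MafG-intact, which in turn was 7.06-fold higher than E9.5, and the scanner software's error estimate for its 1 probe was 0.20, 0.14 and 0.18 (log2) on the 3 arrays. With normexp the first value was -1.70. Its promoter is shown for this difference, with the muscle E-box letters CAGCTG, found 191 bases before the start, in capitals. The 250 bases before the RefSeq start lie at chr11:33578958-33579207, minus strand, build GRCm38.p6, and are printed 5′ to 3′ on the strand of the gene.
Gabrp: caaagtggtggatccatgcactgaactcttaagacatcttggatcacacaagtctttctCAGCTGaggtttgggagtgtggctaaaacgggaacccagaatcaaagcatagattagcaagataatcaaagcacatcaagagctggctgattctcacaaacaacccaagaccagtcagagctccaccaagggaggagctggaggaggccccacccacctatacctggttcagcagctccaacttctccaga

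The rho subunits form homomeric GABA channels known best from the retina. Gabrr2 lay at -7.64, -7.59 and -3.11 and was detected on the E9.5 array alone, at least 14.3-fold lower in triple nulls and at least 15.2-fold lower in the E10.5 MafG-intact pool. The value rests on 1 probe and 1 pool. Its chromosomal neighbour Gabrr1 lay at -5.16, -5.58 and -4.99, within 2-fold in every comparison.

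Glycine receptors combine alpha subunits with the beta subunit that anchors them to gephyrin. Glra1, the alpha subunit of adult spinal cord and brainstem, lay at -2.53, -1.35 and -2.59, and Glrb at -2.89, -2.23 and -3.002. In the triple null pool Glra1 was 2.27-fold and Glrb 1.58-fold lower than in E10.5 MafG-intact, while they stood at 0.06 and 0.11 from E9.5. Glra2, the usual fetal alpha subunit, was not detected on any array, and its probe ranged from -8.89 to -8.04.

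Neuronal nicotinic receptors are built of alpha and beta subunits, and the combination of Chrna3 with Chrnb4 is typical of autonomic ganglia, that of Chrna4 with Chrnb2 of the brain. Chrnb2 lay at -4.45, -2.70 and -4.45, 3.38-fold lower in the triple null than in the E10.5 MafG-intact pool and level with E9.5. Chrna3 lay at -6.42, -5.15 and -6.62 and was 2.41-fold lower over 2 probes. Of these, the probe detected on both arrays gave -1.04, and the probe at -1.50 was not detected in the triple null pool. Chrna4 (-0.71), Chrna5 (-0.75) and Chrnb4 (-0.51) were lower by less than 2-fold. Chrna7, whose subunit forms channels by itself, was the 1 of 6 on the other side, at 0.57 in the first comparison and -0.19 in the second. These Chrna7 values rest on 1 probe, as its other probe was detected on no array. The median of the 6 neuronal nicotinic genes was -0.73 in the first comparison and 0.69 in the second.

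The muscle nicotinic receptor has a fetal form, of the alpha, beta, gamma and delta subunits encoded by Chrna1, Chrnb1, Chrng and Chrnd, in which the epsilon subunit of Chrne replaces gamma after birth. Chrna1 lay at -5.82, -4.10 and -6.27 over 2 probes, of which the brighter lay at -3.88, -2.25 and -3.71 and the dimmer was detected on the E10.5 MafG-intact array alone. The brighter probe gave -1.63 in the first comparison, 1.46 in the second and -0.17 in the third. Chrng lay at -4.88, -3.91 and -5.22, with its brighter probe at -3.50, -1.90 and -3.56 and the probes at -1.60 and -0.35 in the first comparison. Both the alpha and the gamma subunit gene were thus highest in the E10.5 MafG-intact pool on each of their probes.

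The remaining muscle subunits differed by less than 2-fold wherever both arrays detected them. Chrnb1 lay at -5.01, -4.63 and -5.29. Chrnd lay at -6.22, -6.21 and -6.62, the last not detected. Chrne, the postnatal subunit, lay at -4.31, -4.38 and -4.23. Of the 5 genes, Chrna1 alone was lower by 2-fold or more in the first comparison; on each gene's brightest probe Chrng joined it. Skeletal muscle markers also differed between these arrays, with a median of -0.82 and Myod1 detected on the E10.5 MafG-intact array alone, though Acta1 (0.90) and Myh8 (0.73) were higher in the triple null pool. Their part in the receptor values was not tested.

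Promoters of Chrna1 and Chrng, the muscle subunit genes that stood apart, are shown with that of Chrne, which did not, because myogenic bHLH factors such as MYOD1 and myogenin bind E-boxes in receptor promoters. Each is the 250 bases before the RefSeq start, build GRCm38.p6, 5′ to 3′ on the gene's strand, with CAGCTG in capitals. Chrna1 is at chr2:73580339-73580588 (minus strand), Chrng at chr1:87205561-87205810 (plus strand) and Chrne at chr11:70619195-70619444 (minus strand).
Chrna1: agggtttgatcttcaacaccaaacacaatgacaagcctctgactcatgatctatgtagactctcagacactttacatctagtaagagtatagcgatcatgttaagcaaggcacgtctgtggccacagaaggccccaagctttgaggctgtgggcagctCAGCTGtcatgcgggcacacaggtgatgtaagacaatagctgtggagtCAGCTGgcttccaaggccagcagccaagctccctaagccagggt
Chrng: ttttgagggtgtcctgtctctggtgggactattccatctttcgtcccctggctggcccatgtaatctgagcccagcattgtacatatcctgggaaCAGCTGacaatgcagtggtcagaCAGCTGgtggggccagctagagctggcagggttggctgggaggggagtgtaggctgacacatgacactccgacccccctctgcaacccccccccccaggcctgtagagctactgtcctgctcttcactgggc
Chrne: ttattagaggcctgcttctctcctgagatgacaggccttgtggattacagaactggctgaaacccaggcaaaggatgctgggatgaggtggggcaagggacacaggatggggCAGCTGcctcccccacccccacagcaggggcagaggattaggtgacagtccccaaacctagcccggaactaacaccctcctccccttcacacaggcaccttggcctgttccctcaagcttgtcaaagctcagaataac
The letters stood 92 and 44 bases before the start in Chrna1, 155 and 132 bases before it in Chrng, and once, at 138 bases, in Chrne. Windows of 300 bases (250 before and 50 after the start) were searched on both strands for the 37 members with a probe that the RefSeq promoter table holds, which have 42 windows. Of 4 muscle subunit windows 3 held CAGCTG, beside 6 of 42 for all members (14.3%), these 3 included, and 16.3% for all genes. At least 2 copies were in 2 of the 4, beside 1.90% of all windows. The general form CANNTG, which includes CAGCTG, was in 64.3% of member windows and 72.3% of all windows. The palindromic small Maf recognition element (TGCTGA, any base, TCAGCA) was in no member window and in 2 of 32851 windows of all genes. So rare an exact match could hardly turn up in 42 windows, and inexact forms were not searched. The count does not show that small Maf sites are absent. A match of letters is a description and shows no binding. Chrnd was not among the promoters used here.

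Tissue markers differed between the same arrays. Of all genes, 4.47% were lower by 2-fold or more in the first comparison, 4.12% higher in the second and 0.783% apart in the third. Of 13 neuron markers, 12 were lower by 2-fold or more in the first comparison (median -1.86), 11 higher by 2-fold or more in the second (median 1.82) and none 2-fold apart in the third (median -0.01); their summed scaled intensity was 10.2, 40.8 and 10.52 and none was below background. Of 9 skeletal muscle markers detected on both E10.5 arrays, 4 were lower by 2-fold or more and 2 (Acta1 and Myh8) lay above 0. The median was -0.82, and the summed intensities of the list were 8.34, 12.5 and 6.92. Myod1, a muscle-determining factor, was detected on the E10.5 MafG-intact array alone, and Myf5 and Ckm on none. Motor neuron markers had a median of -0.94 and sensory neuron markers one of -0.64 in the first comparison. Neural progenitor markers had a median of -0.23 with 1 of 6 lower by 2-fold or more, Fabp7. Blood markers also differed, with 7 of 7 red cell markers lower by 2-fold or more (summed intensities of 175, 422 and 220) and 3 of 3 macrophage markers (0.208, 1.10 and 0.228), and cardiac markers were higher, with a median of 0.71. The part of these other cell types in the receptor values was not tested either.

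**Figure D3:**
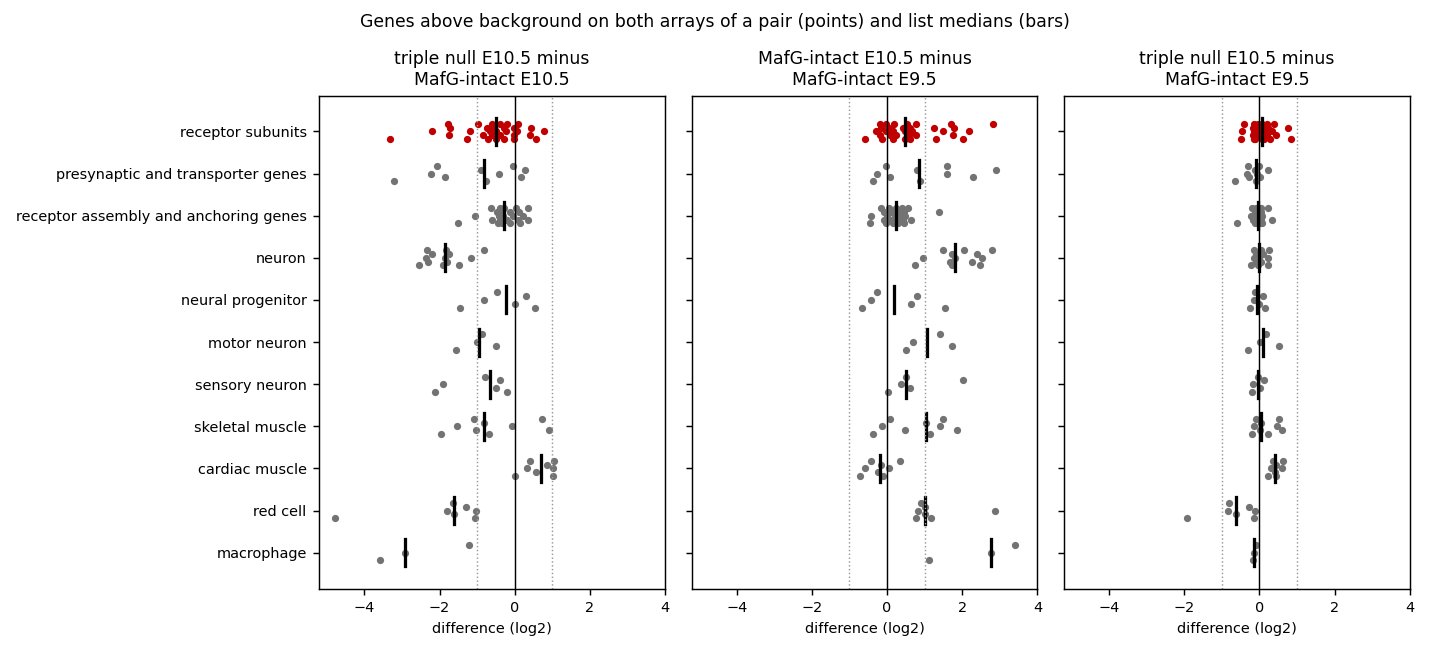
Log2 differences of the receptor subunit genes (red) and of genes of other lists (grey), 1 point per gene detected on both arrays of the pair, with the median of each list as a bar; dotted lines mark 2-fold. The receptor median is -0.50 in the left panel and the neuron marker median -1.86, and in the right panel they are 0.06 and -0.01.

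Genes that make, load or clear the same transmitters were read beside the receptors. Of 10 presynaptic and transporter genes detected on both E10.5 arrays, 4 (40%) were lower by 2-fold or more in the triple null pool and none higher (median -0.83). Of all genes 4.47% were lower by 2-fold or more, and 8.10% of those below the median level. Among the 4 were the glutamate transporter gene Slc17a6, which loads synaptic vesicles (-3.20), Slc32a1, which loads GABA and glycine into vesicles (-2.07), and the choline transporter gene Slc5a7 (-1.85). Another 3 were detected on the E10.5 MafG-intact array alone: Gad2, a GABA-synthesising enzyme (at least 3.31-fold lower), Slc6a5, the neuronal glycine transporter (at least 2.69-fold), and Slc18a3, the vesicular acetylcholine transporter (at least 2.48-fold). Of the 556 genes detected on 1 array of this pair, 24.3% had a bound of 2-fold or more downward. Gad1, the other GABA-synthesising enzyme, was at 0.28. The chloride transporters that set the sign of the GABA response differed by less than 2-fold, with the exporter Slc12a5 at -0.77 and the importer Slc12a2 at 0.17. In the second comparison 4 of 10 were higher by 2-fold or more (median 0.84), beside 4.12% of all genes. In the third none was 2-fold apart (median -0.10), beside 0.783% of all genes.

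Assembly and anchoring genes bring receptors to the membrane and hold them at synapses. Of 24 detected on both E10.5 arrays, 2 were lower by 2-fold or more, Tmem35a, a chaperone of nicotinic receptors (-1.51), and the postsynaptic adhesion gene Nlgn3 (-1.05), and the median was -0.29. That is 8.33% of the list, beside 4.47% of all genes and 8.10% of those below the median level. Some genes of this list, such as Gabarap and Pick1, lie above that median, so neither share is matched to it in level. Gphn, the scaffold of glycine and GABA-A receptors, was at 0.03, and Ric3, another nicotinic receptor chaperone, at 0.15. At the neuromuscular junction none of 3 genes was 2-fold apart, the farthest being Rapsn, which clusters the muscle receptor, at -0.32 and Lrp4, an agrin receptor, at 0.09, and Musk was not detected on any array. Of the metabotropic and delta receptors of these transmitters 4 of 14 with a probe were detected; Grm3 (at least 1.89-fold lower) and Grm8 (at least 1.60-fold) were detected on the E10.5 MafG-intact array alone, and Chrm4 and Gabbr1 were at 0.20 and -0.15.

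Many members lie side by side in the genome, in the order of GRCm38.p6. In the group of Gabrg1, Gabra2, Gabra4 and Gabrb1 on chromosome 5 the members differed among themselves, with Gabrg1 at 0.40, Gabra4 at 0.09 and Gabra2 below background in the triple null pool. Chrna5, Chrna3 and Chrnb4 on chromosome 9 lay at -0.75, -1.27 and -0.51, and Gria2 and its neighbour Glrb on chromosome 3 at -2.21 and -0.66. Of 6 X-linked members with a probe, Gria3 (-0.01) and Gabra3 (-0.50) were detected, and both stayed within 2-fold in every comparison. Leaving them out therefore could not change the counts of genes past 2-fold, and the part of sex was not tested.

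The background correction changed how many subunits passed 2-fold. The normexp alternative estimates background differently and adds an offset of 50 intensity units to each spot, which equals a level of -4.83 on the E10.5 MafG-intact array and -4.43 on the triple null array; 16 of 38 detected members lay below it on the former and 28 on the latter. With it, Gabrp (-1.70) and Gria2 (-1.48) remained lower by 2-fold or more in the first comparison, Glra1 (-0.94) and Chrnb2 (-0.98) fell just short, and Chrna1 (-0.61) and Chrna3 (-0.041) did not pass. In the second comparison Gabrp (1.44), Gria2 (1.44) and Glra1 (1.03) passed. Quantile normalization, median scaling and the deposited value table moved no member by more than the spread between spots at levels from -6 to -4, taken as 0.19 (log2) for a difference.

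**Figure D4:**
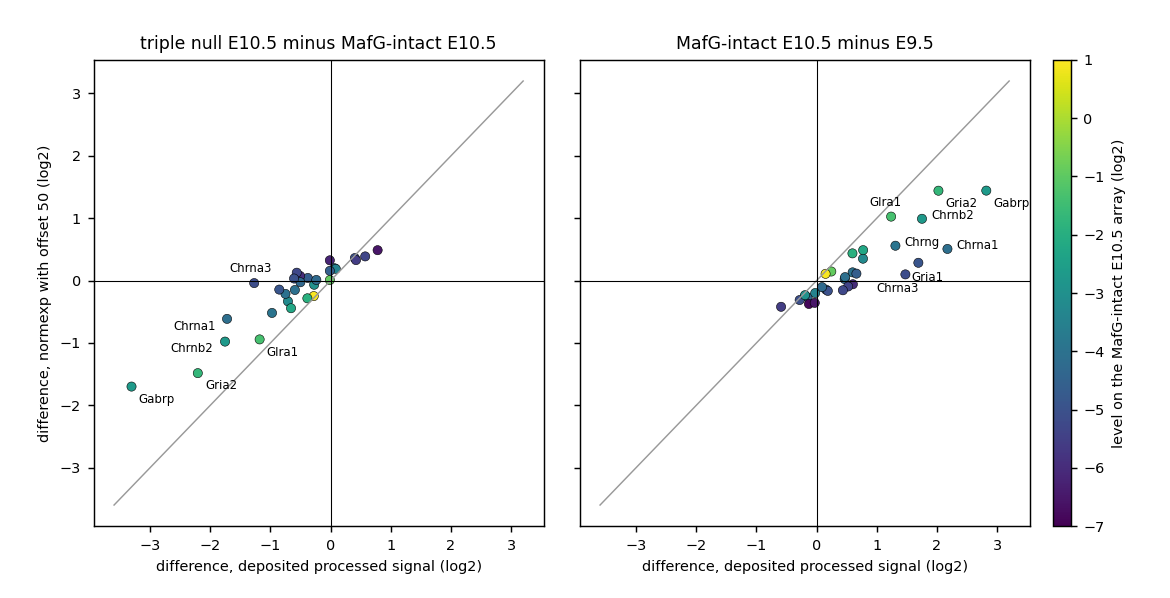
Log2 difference of the members plotted by level that both arrays of the pair detected, with the deposited processed signal (x axis) and with normexp correction and an offset of 50 (y axis), coloured by its level on the E10.5 MafG-intact array; the grey line marks equal values. Gabrp and Gria2 stay beyond -1 in the left panel, while the dim Chrna3 moves from -1.27 to -0.041.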

How the data were processed

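Levels were read from Agilent Feature Extraction files (version 9.5.3.1, protocol GE1-v5_95_Feb07, array design 014868, annotation build mm7, per the file headers). The authors deposited a background-subtracted processed intensity for each spot, on a linear scale and not scaled between arrays. All 3 arrays lay on slide 1 and shared scan day 1. The log2 intensity of non-control spots was taken minus the 75th percentile of the array (1077.8 for triple null; 1419.9 at E10.5 and 1063.6 at E9.5 for MafG-intact). Spots marked as outliers were left out, spots of a probe averaged, and probes named through RefSeq accessions of GRCm38.p6 (22950 of 41170). Each gene's value is the mean of its probes detected on any array, which gave 13184 genes. Where a pair detects a gene only once, a bound sets that level against the dim array's value, raised where needed to the lowest detected level of that array. With 1 array a group no test was made. The steps were also run on simulated data. No result of that run is given here, and how exact the values are at the low levels of most members was not tested.

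The members and lists were chosen with earlier results of these data known. Named genes are the members at least 2-fold apart or bounded in any comparison, the muscle receptor subunits, each family's extremes, and the list genes at least 2-fold apart in the first comparison or the 2 farthest apart; some genes that meet this rule are not reported here, though counts and medians include them. A few further list genes and promoters were picked after their values were seen. Alternatives were normexp correction (offset 50, on median spot and local background intensities), quantile normalization, median scaling over detected genes, the filter on dim probes removed or set to all 3 arrays, a gene's brightest probe alone, the deposited value table (the same intensity rounded, within 0.497%), and thresholds of 1.5-fold and 3-fold; leaving out X-linked members was added after the data were seen. Promoter sequences are RefSeq's. Python 3.11.15, pandas 2.3.3, numpy 2.4.6, matplotlib 3.10.9, R 4.3.3 and limma 3.58.1 were used.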

Additional observations from a re-analysis of the deposited data

How the results depend on the processing

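No paired analysis was possible because each group had 1 array. Of 375 group values recomputed, 317 kept their size within the spread between spots (0.19 on the log2 scale) or within 1.5 times for counts, and of 669 single-member values 580 did; no member at least 2-fold apart changed sides. Quantile normalization, scaling on detected genes and the value table moved no group value. For the other thresholds and without X-linked members only the member counts were recomputed. Without X-linked members these could not change, as the detected ones lay within 2-fold throughout. At 3-fold 5 members were lower in the first comparison and 6 higher in the second, beside 1.92% and 1.56% of all genes. With normexp, which changes the background estimate and adds an offset, 2 members were lower in the comparison at E10.5, here the first, and 3 higher in that of MafG-intact stages, the second, and the member medians were -0.034 and 0.055. In the first comparison family medians became 0.054 (GABA-A), -0.15 (AMPA), -0.029 (NMDA), 0.020 (kainate), -0.13 (neuronal nicotinic), 0.042 (muscle nicotinic) and -0.69 (glycine), with 1 GABA-A gene and 0 neuronal nicotinic, muscle nicotinic or glycine genes 2-fold apart. In the second they became -0.12, 0.17, -0.17, -0.024, 0.11, 0.31 and 0.76 in the same order, with 1 GABA-A, 1 AMPA and 0 neuronal or muscle nicotinic genes 2-fold apart, and the muscle median of the third (triple null against E9.5) became -0.017.

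With no filter on dim probes, genes above background nowhere are added and undetected probes enter the gene averages. Every gene then counts as detected on all arrays. In that setting 2 members were higher in the first comparison, 3 lower in the second, and 3 lower and 1 higher in the third. The shares of all genes were 2.21%, 2.29%, 1.71% and 1.45% in the same order. The first comparison's medians were then -0.28 for all members, -0.51 for neuronal nicotinic and -0.66 for glycine genes, with 4 GABA-A and 2 glycine genes 2-fold apart. In the second they were 0.15 for all members, 0.031 for GABA-A, 0.71 for AMPA, 0.66 for muscle nicotinic and 0.77 for glycine genes, with 4 GABA-A, 1 AMPA and 1 NMDA gene 2-fold apart. In the third, 1 NMDA, 1 neuronal nicotinic and 1 glycine gene were.

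With only probes above background on all 3 arrays, the muscle nicotinic median was -0.99 in the first comparison with 2 genes 2-fold apart, and -0.016 in the third. With the brightest probe of each gene, 2 muscle nicotinic genes were 2-fold apart in the first comparison, the GABA-A median of the second was 0.47 and the muscle median of the third -0.016. At a 1.5-fold threshold 14 members were lower and 1 higher in the first comparison, 15 higher and 1 lower in the second, and 2 higher in the third. Of all genes 9.72% were lower and 4.12% higher in the first, 9.26% higher and 4.33% lower in the second, and 1.38% higher in the third. Of the 89 single-member values that moved in any setting, 54 moved with normexp. Every value is also limited by the number of arrays.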
